A study of Mus musculus with 8 samples.

Results

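The interferon-γ inducible GTPases described here are 10 genes, Gbp2, Gbp3, Gbp4, Gbp5, Gbp7, Igtp, Iigp1, Irgm1, Irgm2 and Tgtp2, chosen by gene name from 26939 genes counted in tumor-associated macrophages (TAMs). Each of the 10 names matched 1 gene identifier, and all 10 genes passed the filter on low counts in every comparison. They were followed through 8 bulk RNA-seq libraries, with 2 libraries in each of 4 groups. The comparisons address whether the loss of endosomal Toll-like receptor signaling and treatment with an antibody against the scavenger receptor MARCO changed this gene family, and whether its levels went with the amount of T cell and NK cell RNA in the same libraries.

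TAMs were sorted as live cells positive for CD45, CD11b and F4/80 and negative for Gr-1, on day 21 of orthotopic mammary fat pad tumors of EO771, a mouse breast cancer cell line, in female C57BL/6J mice that were 8 to 14 weeks old. The control groups, WT and Unc93b1 3d/3d, came from mice without the antibody, with cells of 3 mice pooled for every control sample. The αMARCO groups, again of WT and Unc93b1 3d/3d mice, were given 100 µg of αMARCO, clone ED31, on days 3, 6, 9 and 12, and whether these samples were pooled is not stated. The 3d allele is a missense change of Unc93b1, the chaperone that carries nucleic acid sensing Toll-like receptors to endosomes. It leaves the transcript in place, so counts of Unc93b1 do not check the genotype. The allele was carried by all cells of the mutant hosts, but not by the injected tumor cells. The labels call the control mice untreated or PBS treated while the protocol names an isotype antibody, and the genotype field of 1 Unc93b1 control library reads 3d/4d where its title reads 3d/3d. Nothing in the labels names separate cultures or animals behind the αMARCO replicates, so p-values measure the spread between these samples.

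The 10 genes belong to 2 families of large cytosolic GTPases, the guanylate-binding proteins (GBPs) and the immunity-related GTPases (IRGs). Interferon-γ from T cells and NK cells binds its receptor on macrophages, and signaling from the receptor then switches these genes on through GAS and ISRE sequences in their promoters. The proteins gather on vacuoles that hold intracellular pathogens and on other membranes that lack protection by the regulatory IRGs. Type I interferons also act on ISRE sequences.

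Library totals lay between 15182618 and 26411936 counts. Levels are given as CPM, counts relative to library size, scaled with edgeR's TMM factors over the 8 libraries, and 3 counts, taken as the floor of detection, correspond to 0.114 to 0.198 CPM and cover counting error only. The macrophage genes Adgre1 and Csf1r were high in every library, at 331 to 720 CPM and 904 to 1131 CPM, whereas the neutrophil genes Ly6g and Retnlg stayed at or below 1.32 CPM and S100a8 and S100a9 lay between 0.887 and 24.4 CPM, highest in the first WT control replicate. The Unc93b1 3d/3d αMARCO replicates stood apart from each other. The SD of the log2 difference between them was 1.01 over 16620 genes, against 0.44 to 0.58 in the other 3 groups, and the second replicate was higher by a median of 0.32 among the shortest tertile of genes and lower by 0.34 among the longest tertile. The counts of called genes in comparisons with this group are also given without 1 or the other of its libraries.

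Levels between genes were compared as FPKM, the deposited value per kilobase of gene. In WT control, Gbp2 and Igtp led with means of 96.5 and 82.4 FPKM, and Iigp1, on chromosome 18, followed with 54.5 FPKM. The deposited length of Iigp1 is 3121 bases, where GENCODE M21 has 5823 exonic bases, so its place in this order depends on the annotation. Gbp3, Gbp4, Irgm2 and Gbp7 lay between 27.1 and 39.3 FPKM, Gbp5 at 19.3 FPKM and Irgm1 at 12.2 FPKM. Tgtp2, a member of the T cell specific GTPase pair, was near the floor at 0.33 FPKM, read from 7 to 22 counts per library. Its transcripts share 76.8% of their stretches of 100 bases with Tgtp1 and Gm12185, so reads may be split or lost between the copies. Igtp and Irgm2 overlap by 162 exonic bases on the same strand of chromosome 11, 8.0% and 4.4% of their exonic lengths, and Gbp7 shares 11.3% of its exonic bases with Gm43802. Irgm1, the regulatory IRG, had the lowest level of the 9 well counted genes in both WT control libraries and ranked 5 of 10 in the second Unc93b1 3d/3d αMARCO library. In the first library of that pair Irgm1 was at 13.9 FPKM, above Gbp5 at 12.9 FPKM and Tgtp2 alone, so the higher rank rested on the second.

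In the GRCm38 build used for the deposited counts, Gbp2 (142620602 to 142638008), Gbp3 (142560026 to 142573209), Gbp5 (142493978 to 142522344) and Gbp7 (142530342 to 142550149) lie side by side on the plus strand of chromosome 3. Gbp4 lies on the minus strand of chromosome 5 at 105115767 to 105139586 and shares 61 exonic bases with Gbp8 and Gbp9. Irgm1 (48861968 to 48871683, minus strand), Tgtp2 (49057194 to 49064206, minus strand), Igtp (58199556 to 58207591, plus strand) and Irgm2 (58199618 to 58222782, plus strand) are on chromosome 11.

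RefSeq promoter windows, which reach from 250 bases before the start to 50 after it, were at hand for 8 of the 10 genes, Gbp4 and Iigp1 being the exceptions. The windows were searched on both strands for the ISRE core GAAANNGAAA and the GAS sequence TTCNNNGAA. The 8 genes have 9 windows, of which 8, 1 per gene, held an ISRE core, and the second window of Gbp3 held neither motif. An ISRE core stands in 3.44% of 32851 promoter windows, and Gbp5, Gbp7, Igtp, Irgm2 and Tgtp2 also held a GAS, which 8.3% of windows hold. Both motifs stood in 0.454% of windows. These matches are a description of letters, not of binding. The stretches from 110 to 11 bases before the start are given for 5 genes, 5′ to 3′ on the gene's strand, with GAS and ISRE core matches in capitals, to show the shared arrangement of 3 IRG promoters beside a GBP and an IRG promoter without a GAS.
Igtp: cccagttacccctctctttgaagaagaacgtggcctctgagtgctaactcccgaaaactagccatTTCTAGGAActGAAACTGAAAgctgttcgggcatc
Irgm2: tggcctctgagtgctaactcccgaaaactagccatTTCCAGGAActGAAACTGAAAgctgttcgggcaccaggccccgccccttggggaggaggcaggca
Tgtp2: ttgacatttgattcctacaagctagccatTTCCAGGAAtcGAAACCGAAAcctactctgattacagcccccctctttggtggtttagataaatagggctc
Irgm1: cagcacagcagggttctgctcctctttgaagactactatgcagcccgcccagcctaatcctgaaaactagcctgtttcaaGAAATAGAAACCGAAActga
Gbp2: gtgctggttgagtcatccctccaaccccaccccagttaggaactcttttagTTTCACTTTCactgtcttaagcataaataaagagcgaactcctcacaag

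These stretches are chr11:58199446-58199545 for Igtp and chr11:58214867-58214966 for Irgm2 on the plus strand, chr11:49064223-49064322 for Tgtp2 and chr11:48871431-48871530 for Irgm1 on the minus strand, and chr3:142620553-142620652 for Gbp2 on the plus strand, in RefSeq's GRCm38.p6. In Igtp, Irgm2 and Tgtp2 the GAS starts 11 bases before the ISRE core, on the gene's own strand. Of 32851 promoter windows, 5 (0.0152%) hold this arrangement, and all 5 belong to IRG family genes, the others being Tgtp1 and Gm12185. The spacing counted was that seen in these genes, so the count is a description and not a test. The 5 windows are also not independent. Tgtp2 shares most of its transcript sequence with Tgtp1 and Gm12185, and the printed stretches of Igtp and Irgm2 are nearly the same around the motifs. Irgm1 holds 2 overlapping ISRE cores and no GAS, and Gbp2 holds 1 ISRE core read on the opposite strand. The ISRE cores of the 8 genes end 15 to 50 bases before the start, except in Tgtp2, Irgm2 and Gbp5, where they end 61, 55 and 156 bases before it.

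**Figure D1:**
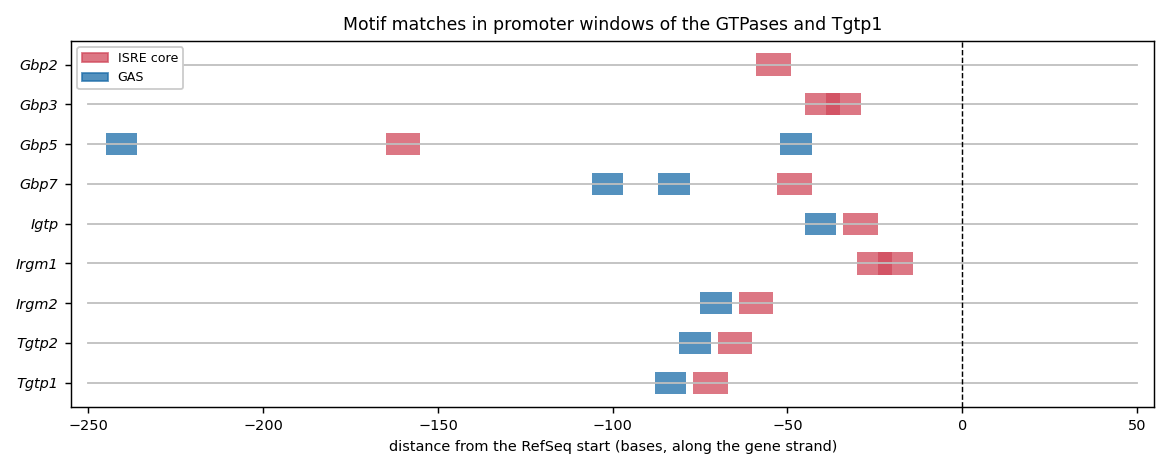
Position of ISRE core (red) and GAS (blue) matches in the RefSeq promoter windows of the 8 GTPases with an entry and of Tgtp1, as distance in bases from the start along the gene strand. In Igtp, Irgm2, Tgtp2 and Tgtp1 the GAS begins 11 bases before the ISRE core, and Gbp2, Gbp3 and Irgm1 have no GAS.

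In control TAMs, the WT libraries had more of 4 of the 10 GTPases than the Unc93b1 3d/3d libraries, and less of none. Gbp2, Gbp3, Gbp4 and Igtp passed the threshold, an adjusted p of at most 0.05 in edgeR's quasi-likelihood test and a log2 fold change of at least 0.5 in size. Of 15600 genes tested, 13.0% were called in this comparison and 6.58% were called higher in WT. All 10 GTPases had a positive log2 fold change, with a median of 0.40 where the median of all genes was -0.0036. Both WT libraries lay above both Unc93b1 3d/3d libraries for 6 of the 10, against 31.9% of all genes.

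Gbp2, a guanylate-binding protein that coats pathogen vacuoles, was at 234 and 259 CPM in the WT control libraries and at 119 and 166 CPM in the Unc93b1 3d/3d control libraries. The groups did not overlap, and the log2 fold change was 0.78 ± 0.15 (SE, n = 2 per group, edgeR adjusted p = 0.0128). Gbp4, a GBP of the chromosome 5 cluster, was at 244 and 319 CPM against 127 and 185 CPM. Both WT libraries were higher, with a log2 fold change of 0.84 ± 0.21 (edgeR adjusted p = 0.0452). Igtp, an IRG that acts as a regulator of the other IRGs, was at 153 and 185 CPM against 108 and 114 CPM. Its log2 fold change was 0.60 ± 0.11 (edgeR adjusted p = 0.00755), with no overlap between the groups. Gbp3, a GBP of the chromosome 3 cluster, was at 124 and 137 CPM in WT control, against 85.2 and 94.0 CPM in the Unc93b1 3d/3d controls, a log2 fold change of 0.52 ± 0.10 (edgeR adjusted p = 0.00786).

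The other 6 GTPases did not pass. Irgm2, a regulatory IRG, was at 97.6 and 121 CPM in WT control, against 87.9 and 82.6 CPM in the Unc93b1 3d/3d controls, with a log2 fold change of 0.34 ± 0.12 (edgeR adjusted p = 0.0707). Gbp5, a GBP known for its part in inflammasome assembly, was at 132 and 128 CPM against 109 and 114 CPM, a log2 fold change of 0.21 ± 0.09. The libraries of these 2 genes did not overlap between genotypes, but the differences passed neither the test (edgeR adjusted p = 0.141 for Gbp5) nor the fold limit. Iigp1, an effector IRG that damages parasite vacuoles, spread widely within both groups, at 144 and 201 CPM against 99.3 and 155 CPM, and its log2 fold change of 0.43 ± 0.27 was not called (edgeR adjusted p = 0.349). Gbp7 was at 147 and 162 CPM against 137 and 149.9 CPM, and Irgm1 at 62.2 and 81.9 CPM against 72.1 and 65.4 CPM. Both genes overlapped between genotypes, with log2 fold changes of 0.09 ± 0.10 and 0.05 ± 0.14. Tgtp2 had 14 and 22 counts against 9 and 18.

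The calls rested in part on 2 libraries. Without the second WT control replicate 1 GTPase was called, Gbp2, with log2 fold changes of 0.46 for Gbp3, 0.64 for Gbp4 and 0.46 for Igtp. Without the first Unc93b1 3d/3d control replicate 2 were called, Gbp2 and Igtp. With all 8 libraries in 1 model, which takes in the spread of the Unc93b1 3d/3d αMARCO replicates, none of the 10 and 364 genes were called, and the edgeR adjusted p of the 4 genes lay between 0.0969 and 0.185.

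**Figure D2:**
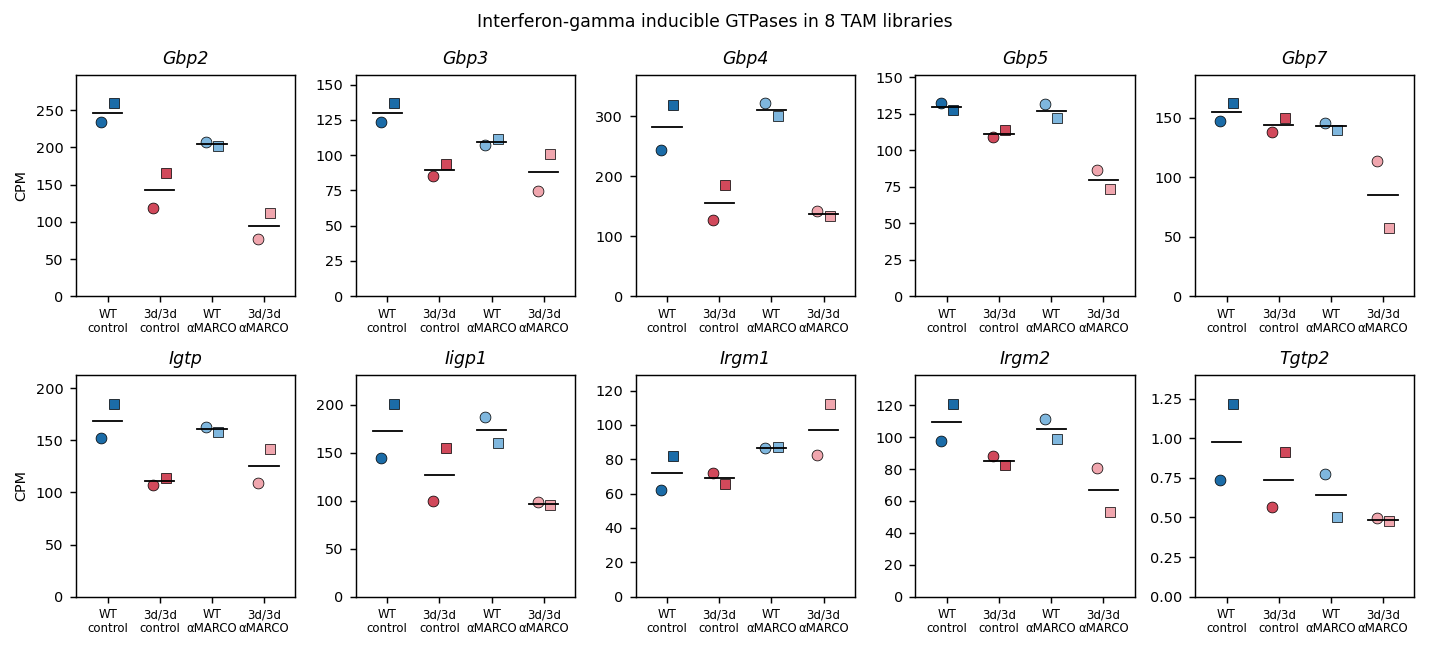
Level of each of the 10 GTPases in CPM, with circles for replicate 1, squares for replicate 2 and a bar for the group mean, and with each vertical axis starting at 0. The WT control and WT αMARCO libraries lie above the Unc93b1 3d/3d libraries of the same treatment for Gbp2, Gbp3, Gbp4, Gbp5, Igtp and Irgm2, while Irgm1 is highest in 1 Unc93b1 3d/3d αMARCO library.

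The same genotype difference in control TAMs was set beside other interferon-γ genes. A list of 19 other family genes held GBPs and IRGs together with Gvin1 and Gm4070. Of these 19 genes, 3 were called higher in WT and none lower, with a median log2 fold change of 0.36. They were Gbp10 (1.58 ± 0.44, from 13 to 56 counts), Tgtp1 (0.996 ± 0.243) and Gbp8 (0.74 ± 0.20), with edgeR adjusted p of 0.0361, 0.0219 and 0.0498. Without the first Unc93b1 3d/3d control replicate these rose to 0.115, 0.107 and 0.0818, and without the second WT control replicate Gbp10 and Gbp8 had 0.168 and 0.0871. Gbp10 had 0.0961 without the second Unc93b1 3d/3d control replicate and 0.0796 in DESeq2, and Gbp8 had 0.0516 with DESeq2's size factors and 0.0505 with a minimum of 10 counts. When the reads of Tgtp1 and Tgtp2 were summed, an alternative chosen after seeing the data, the pair had a log2 fold change of 0.92 ± 0.23 (edgeR adjusted p = 0.0254). The sum was 193 and 179 counts in the WT controls against 70 and 119 counts in the Unc93b1 3d/3d controls.

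Among 10 genes of the interferon-γ signaling chain, 3 were called higher in WT control TAMs. Ifng, the ligand, had 151 and 144 counts in WT control, against 14 and 0 in the Unc93b1 3d/3d controls, a log2 fold change of 4.26 ± 0.92 (edgeR adjusted p = 0.0344). Its adjusted p was 0.237 in DESeq2, and 0.365 and 0.33 in edgeR without the first or the second WT control replicate. The receptor chains Ifngr1 and Ifngr2 had log2 fold changes of -0.09 ± 0.13 and -0.27 ± 0.09, and the receptor kinases Jak1 and Jak2 of 0.08 ± 0.09 and 0.46 ± 0.24. None of these 4 was called. Irf1, the transcription factor that acts on ISRE sequences of these GTPases, was at 313 and 406 CPM against 180.3 and 226 CPM, a log2 fold change of 0.81 ± 0.15 (edgeR adjusted p = 0.0113). Socs1, a feedback inhibitor of the receptor, was also called, with 0.67 ± 0.10 (edgeR adjusted p = 0.00314). Irf8 and Ptpn2, a macrophage transcription factor and a phosphatase that limits the pathway, stayed below the threshold with log2 fold changes of 0.24 ± 0.11 and 0.40 ± 0.12.

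Of 24 interferon-γ targets outside the GTPase family, 6 were called higher in WT control and none lower, with a median log2 fold change of 0.37. Serpina3g, a protease inhibitor, had the largest difference among those with ample counts, a log2 fold change of 2.85 ± 0.39 (edgeR adjusted p = 0.0248, 0.246 and 0.248 without the first or the second WT control replicate, and 0.122 with no filter). Upp1, an enzyme of pyrimidine salvage, and Psmb10, a subunit of the immunoproteasome, had 0.87 ± 0.16 and 0.70 ± 0.10. Ido1, an enzyme of tryptophan breakdown, was also called, from 12 and 18 counts in WT control and 1 count in each Unc93b1 3d/3d control library, but not without the first or the second of these (edgeR adjusted p = 0.139 and 0.147). Of 20 genes of the type I interferon response, none was called higher and Rsad2, an antiviral enzyme, was called lower in WT, with a log2 fold change of -0.59 ± 0.14 (edgeR adjusted p = 0.0203, and 0.0619 without the first Unc93b1 3d/3d control replicate). The median of that list was -0.17, on the other side of 0 from the GTPases. In 1 model of the 8 libraries Serpina3g stayed called, and Gbp10, Tgtp1, Gbp8, Ifng, Irf1, Socs1, Upp1, Psmb10, Ido1 and Rsad2 had edgeR adjusted p between 0.104 and 0.363.

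**Figure D3:**
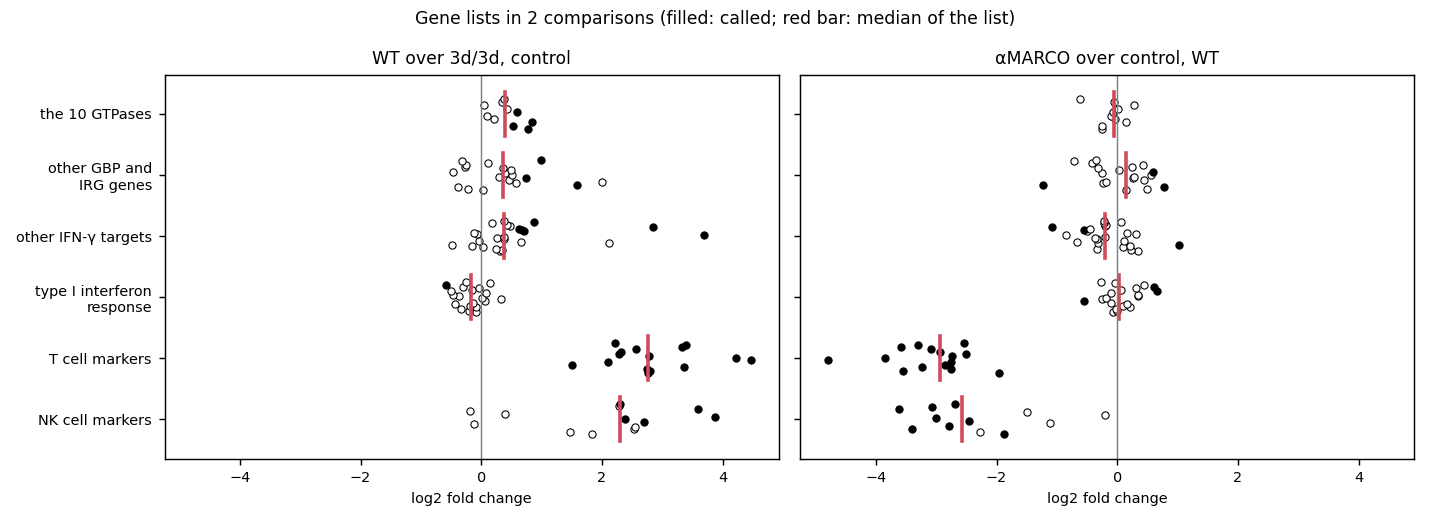
Log2 fold change of every tested gene of 6 lists, between WT and Unc93b1 3d/3d control TAMs (left) and between αMARCO and control TAMs of WT mice (right), with called genes filled and list medians as red bars. The median of the GTPases was 0.40 on the left and -0.06 on the right, where the T cell markers had medians of 2.76 and -2.93.

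Under αMARCO, both WT libraries again had more of 9 of the 10 GTPases than both Unc93b1 3d/3d libraries, but no gene of the 10 passed the edgeR threshold. No gene of 15722 was called in this comparison (0.0%), 1076 (6.84%) had an unadjusted p of at most 0.05, and DESeq2 called 214 genes (1.36%). The libraries of the 9 genes did not overlap, against 22.1% of all genes with WT higher. The median log2 fold change of the 10 was 0.66, where the median of all genes was -0.03. Of the 19 other family genes, 16 had a positive log2 fold change, with a median of 0.59. Of 23 tested interferon-γ targets outside the family, 10 did, with a median of -0.16, on the other side of 0 from the GTPases. In control TAMs these outside targets had lain on the same side. DESeq2 called Gbp2 and Gbp4, and Gbp2, Gbp4, Gbp5 and Iigp1 had an unadjusted edgeR p of at most 0.05.

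Gbp4 was at 322 and 301 CPM in WT αMARCO and at 142 and 134 CPM in Unc93b1 3d/3d αMARCO. The replicates of both groups were close, and the log2 fold change was 1.18 ± 0.18 (n = 2 per group, adjusted p = 0.281 in edgeR and 0.000296 in DESeq2). Gbp2 was at 208 and 202 CPM against 77.5 and 112 CPM, with 1.12 ± 0.24 (adjusted p = 0.467 in edgeR and 0.0144 in DESeq2). Iigp1 was at 188 and 159.9 CPM against 98.6 and 95.5 CPM, a log2 fold change of 0.84 ± 0.19 (edgeR adjusted p = 0.467). These 3 genes had the largest differences of the 10 with both replicates, but without the first Unc93b1 3d/3d αMARCO replicate Gbp7 led with 1.33.

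Gbp5 was at 131 and 122 CPM in WT αMARCO and at 86.7 and 73.1 CPM in Unc93b1 3d/3d αMARCO, with a log2 fold change of 0.67 ± 0.19. Gbp7 was at 146 and 139 CPM against 114 and 56.9 CPM, and Irgm2 at 112 and 98.7 CPM against 80.8 and 52.9 CPM, with log2 fold changes of 0.74 ± 0.36 and 0.65 ± 0.26. In both genes the second Unc93b1 3d/3d αMARCO replicate was well below the first, and the values without the first and without the second were 1.33 and 0.33 for Gbp7 and 0.995 and 0.38 for Irgm2. Gbp3 was at 107 and 111 CPM against 74.5 and 101 CPM, and Igtp at 163 and 158 CPM against 109 and 142 CPM, with log2 fold changes of 0.32 ± 0.22 and 0.36 ± 0.21. Here the second replicate was the higher one, and the same pairs of values were 0.11 and 0.55 for Gbp3 and 0.19 and 0.56 for Igtp. Tgtp2 had 16 and 13 counts against 11 and 7.

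Irgm1 was the exception. It was at 86.3 and 87.2 CPM in WT αMARCO and at 82.2 and 112 CPM in Unc93b1 3d/3d αMARCO, and its log2 fold change was -0.16 ± 0.22. Without the first Unc93b1 3d/3d αMARCO replicate, 6 of the 10 GTPases and 6366 genes were called, and without the second, 6 GTPases and 1252 genes, with the lone library assumed to vary like the WT pair. Gbp2, Gbp4, Gbp5 and Iigp1 were called either way, with log2 fold changes of 0.88 and 1.41, 1.23 and 1.13, 0.80 and 0.55, and 0.87 and 0.82.

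**Figure D4:**
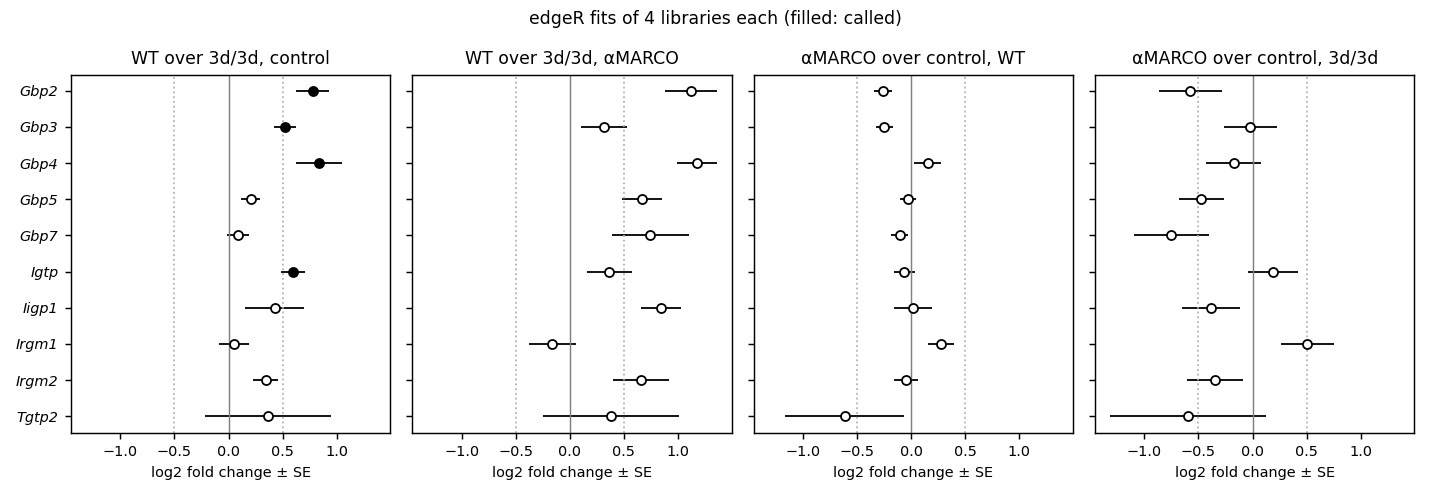
Log2 fold change with its SE for the 10 GTPases in 4 comparisons of 2 libraries against 2, with dotted lines at the fold limit of 0.5 on either side of 0 and called genes filled. Called genes appear in control TAMs, Gbp2, Gbp3, Gbp4 and Igtp, and the αMARCO effect in WT lies between -0.61 and 0.28 for all 10.

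In WT mice, αMARCO left all 10 GTPases below the threshold in edgeR and in DESeq2, although 3236 of 15630 genes (20.7%) were called between WT αMARCO and WT control. The median log2 fold change of the 10 was -0.06 and that of all genes -0.01. Both αMARCO libraries lay below both controls for Gbp2, Gbp3 and Gbp7, 3 of the 10, against 35.4% of all genes. Gbp2 was at 208 and 202 CPM under αMARCO and at 234 and 259 CPM in control, and Gbp3 at 107 and 111 CPM against 124 and 137 CPM. These 2 genes had log2 fold changes of -0.26 ± 0.08 and -0.25 ± 0.08 that passed the edgeR test (adjusted p = 0.0371 and 0.0388) but not the fold limit. Irgm1 was higher in both αMARCO libraries, with 0.28 ± 0.12 (edgeR adjusted p = 0.11). Gbp4, Gbp5, Gbp7, Igtp, Iigp1 and Irgm2 had log2 fold changes between -0.11 and 0.15, each within 1.5 SE of 0. The summed level of the 10 was 1338 and 1595 CPM in WT control and 1463 and 1380 CPM in WT αMARCO, so the αMARCO libraries lay inside the range of the controls.

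The lists of other family genes, outside targets and type I interferon genes each had 3 called genes under αMARCO in WT mice, of 19, 24 and 20 tested, in each list a smaller share than the 20.7% of all genes. Of the other family genes, Gbp10 was called lower (log2 fold change -1.23 ± 0.41, edgeR adjusted p = 0.0433, from 17 to 56 counts, but 0.103 in DESeq2 and 0.0715 to 0.246 in edgeR without the second WT control or either αMARCO replicate), and F830016B08Rik and Gm4070 were called higher, with 0.77 ± 0.21 and 0.59 ± 0.15. Neither of these was called without the first αMARCO replicate (edgeR adjusted p = 0.158 and 0.149), and F830016B08Rik fell below the fold limit without the first WT control replicate (0.49). Of the targets outside the family, Serpina3g and Psmb8 were called lower (-1.08 ± 0.14 and -0.55 ± 0.08) and Cxcl11, a chemokine that draws T cells, was called higher (1.03 ± 0.14). Of the type I interferon genes, Oas2 and Oasl2 were called higher (0.66 ± 0.09 and 0.61 ± 0.08) and Ifit3b lower (-0.55 ± 0.13, but -0.50 without the first WT control replicate and -0.36 without the first αMARCO replicate). In 1 model of the 8 libraries Cxcl11 alone of these genes stayed called (edgeR adjusted p = 0.0495). Ifng was called lower, from 151 and 144 counts to 4 and 34 counts, a log2 fold change of -3.31 ± 0.59 (edgeR adjusted p = 0.00764). Without either WT control replicate its adjusted p was 0.0641 and 0.0628. Irf1 was at 313 and 406 CPM in WT control and at 345 and 327 CPM in WT αMARCO, with a log2 fold change of -0.09 ± 0.12 that was not called.

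In Unc93b1 3d/3d mice, none of the 10 GTPases and none of 15428 genes (0.0%) were called between αMARCO and control, with 744 genes (4.82%) at an unadjusted p of at most 0.05 and 60 genes (0.389%) called by DESeq2. Both αMARCO libraries lay below both control libraries for Gbp2, Gbp5, Gbp7, Iigp1, Irgm2 and Tgtp2, 6 of the 10, against 19.4% of all genes, and above them for Irgm1. Among the 9 well counted genes the largest differences were -0.75 ± 0.34 for Gbp7, -0.58 ± 0.29 for Gbp2 and 0.51 ± 0.24 for Irgm1 on the log2 scale (edgeR adjusted p = 0.823 for each). Without the first αMARCO replicate Gbp5, Gbp7 and Irgm2 were called lower and Irgm1 higher among 5500 called genes, and without the second Gbp2 was called lower among 571.

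The αMARCO effects were compared between genotypes in 1 model of the 8 libraries. None of the 10 GTPases and none of 16620 genes (0.0%) were called, with 2549 genes (15.3%) at an unadjusted p of at most 0.05 and 211 genes (1.27%), none of them among the 10, called by DESeq2. The difference, WT minus Unc93b1 3d/3d, lay between -0.25 ± 0.24 for Igtp and 0.64 ± 0.39 for Gbp7 on the log2 scale, and Gbp5 came nearest to the threshold with 0.44 ± 0.20 (edgeR adjusted p = 0.327). Without the first Unc93b1 3d/3d αMARCO replicate Gbp5, Gbp7 and Irgm2 were called among 6440 genes, and without the second none of the 10 and 612 genes were.

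The GTPases were then set beside the T cell and NK cell RNA of the same libraries. The 15 T cell markers, receptor chains and kinases such as Cd3d, Cd8a, Trbc1 and Lck, summed to 171 and 194 CPM in WT control. In WT αMARCO they summed to 17.6 and 26.2 CPM, in Unc93b1 3d/3d control to 39.4 and 18.5 CPM, and in Unc93b1 3d/3d αMARCO to 12.4 and 12.3 CPM. All 15 were called higher in the WT controls than in the Unc93b1 3d/3d controls, and all 15 were called lower under αMARCO in WT mice. The 13 NK cell markers, such as Klre1, Nkg7 and Prf1, summed to 227 and 208 CPM in WT control and to 48.1 to 84.1 CPM in the other 6 libraries, where the receptor gene Klrk1 alone gave 34.1 to 55.2 CPM. Of these, 5 were called higher in WT control against Unc93b1 3d/3d control, and 8 of 12 tested were called lower under αMARCO in WT mice. In sorted bulk samples, fewer T or NK cells and less RNA per cell cannot be told apart.

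The summed levels were compared between the groups. Between the control genotypes the mean T cell sum was 6.30 times and the NK cell sum 3.29 times as high in WT, and the sum of the 10 GTPases was 1.42 times as high. Between WT control and WT αMARCO the T cell sum was 8.34 times and the NK cell sum 3.53 times as high in control, and the sum of the GTPases 1.03 times as high. Under αMARCO the WT libraries had 1.77 times the T cell sum, 1.01 times the NK cell sum and 1.63 times the GTPase sum of the Unc93b1 3d/3d libraries. The NK cell ratio rested on Klrk1, which was at 39.6 and 39.8 CPM in WT αMARCO and at 40.9 and 55.2 CPM in Unc93b1 3d/3d αMARCO. The other 12 NK cell markers, a sum chosen after seeing the data, were at 16.1 and 27.8 CPM against 12.2 and 14.2 CPM, 1.66 times as high in WT. Against the first or the second Unc93b1 3d/3d αMARCO library alone, the ratio was 1.76 and 1.78 for the T cell sum, 1.80 and 1.54 for the 12 NK cell markers and 1.64 and 1.62 for the GTPases. Without Klrk1 the NK cell sum was 5.43 times as high in WT control as in Unc93b1 3d/3d control and 7.83 times as high as in WT αMARCO. The T and NK sum of the WT αMARCO libraries, 73.2 and 93.8 CPM, lay between those of the Unc93b1 3d/3d controls, 66.6 and 123.5 CPM, and far below the 398 and 402 CPM of the WT controls, while their GTPase sum lay between those of the WT controls. Without Klrk1 the T and NK sum was 33.6 and 54.0 CPM in WT αMARCO, against 88.7 and 32.5 CPM in Unc93b1 3d/3d control.

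**Figure D5:**
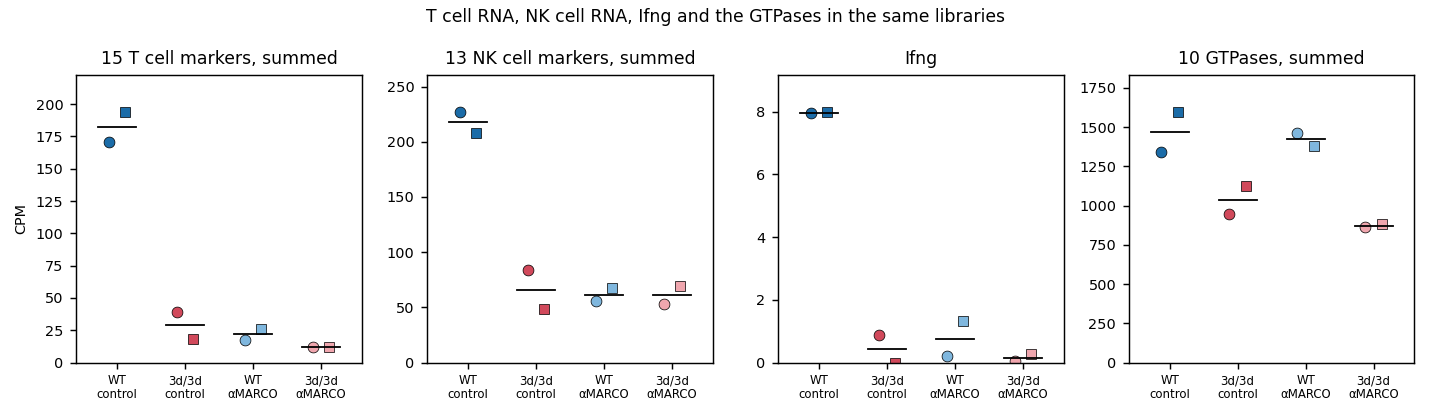
Summed CPM of 15 T cell markers and of 13 NK cell markers, CPM of Ifng, and summed CPM of the 10 GTPases, in each of the 8 libraries, with circles for replicate 1, squares for replicate 2 and a bar for the mean. The lymphocyte sums and Ifng are high in WT control alone among these groups, and the GTPase sum lies at 1338 to 1595 CPM in the 4 WT libraries and at 866 to 1126 CPM in the 4 Unc93b1 3d/3d libraries.

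Within groups, the 4 pairs of replicates were the only independent comparisons, since the 10 genes of a pair share its libraries. The T and NK sums of the WT control pair were too close to give an order. The widest gap was in Unc93b1 3d/3d control, where the first replicate had 123.5 CPM and the second 66.6 CPM of T and NK markers. In that pair the first replicate was the lower one for 8 of the 10 GTPases, and the higher one for Irgm1 and Irgm2. The share of all genes with that direction was not computed. In both αMARCO groups the second replicate had the higher T and NK sum. It was also higher for Gbp3 and Irgm1 alone in WT αMARCO, and for Gbp2, Gbp3, Igtp and Irgm1 in Unc93b1 3d/3d αMARCO. In the latter pair the T cell sums were 12.4 and 12.3 CPM. The sums of the GTPases differed between replicates by at most 0.25 on the log2 scale, and the T and NK sums by 0.02 in WT control to 0.89 in Unc93b1 3d/3d control.

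In a model of the 4 groups with the log2 of the T and NK sum as a further term, the slope of each GTPase per log2 unit of that sum was estimated within groups. The sum included Klrk1. In the Unc93b1 3d/3d αMARCO pair it was 65.5 and 81.7 CPM, but 24.6 and 26.5 CPM without Klrk1, so the gap of that pair was mainly Klrk1. None of the 10 was called, nor was any of 16620 genes (0.0%), and 218 genes (1.31%) had an unadjusted p of at most 0.05. The slopes were negative for 7 of the 10, with a median of -0.22. They lay between -0.83 ± 0.86 for Tgtp2 and 0.27 ± 0.28 for Irgm1, and the edgeR adjusted p was 1.0 for each of the 10. The slopes of Iigp1 and Gbp4 were -0.65 ± 0.28 and -0.53 ± 0.26. That of Ifng was 7.69 ± 1.02 with an edgeR adjusted p of 1.0, and the T and NK markers that make up the sum were not called either. The control genotypes were also compared in this model of all 8 libraries, with the sum as a covariate. None of the 10 GTPases and none of the 16620 genes were called. The log2 fold changes were then 1.38 ± 0.76 for Gbp2, 0.46 ± 0.61 for Gbp3, 2.0 ± 0.60 for Gbp4 and 0.53 ± 0.61 for Igtp, each with an edgeR adjusted p of 1.0. The sum was higher in both WT controls than in both Unc93b1 3d/3d controls, so the genotype and the T and NK RNA cannot be told apart in those 4 libraries.

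Other cells in the sort also differed between groups. The 7 mature dendritic cell markers, such as Ccr7 and Ccl17, summed to 849 and 435 CPM in WT control and to 61.1 to 112 CPM in the other 6 libraries. The 5 markers of cross-presenting dendritic cells, Xcr1, Clec9a, Itgae, Wdfy4 and Cadm1, summed to 450.0 and 468 CPM in WT control, 293 to 299 CPM in Unc93b1 3d/3d control and WT αMARCO, and 250.1 and 159 CPM in Unc93b1 3d/3d αMARCO. Wdfy4 and Cadm1 made up most of these sums, with means of 255 and 184 CPM in WT control. Mean Xcr1 and Clec9a were 6.90 and 1.56 CPM in Unc93b1 3d/3d αMARCO, above 5.01 and 0.745 CPM in WT αMARCO. Itgae, Wdfy4 and Cadm1 had lower means in Unc93b1 3d/3d αMARCO than in WT αMARCO. The 12 macrophage markers summed to 14027 to 17449 CPM in the 4 WT libraries and to 15504 to 23949 CPM in the 4 Unc93b1 3d/3d libraries. The 6 neutrophil markers summed to 205 to 360 CPM over the 8 libraries, of which Csf3r gave 193 to 357 CPM, and S100a8 and Cxcr2 were called lower under αMARCO in WT mice. Of 9 tumor and stromal markers tested, 6 were called lower in that comparison, and Pecam1 was called higher and Col3a1 lower in WT control against Unc93b1 3d/3d control. Cdh5 and Kdr of the same list did not follow Pecam1. Their means were 7.85 and 77.3 CPM in WT control and 10.4 and 72.4 CPM in Unc93b1 3d/3d control. The 6 B cell markers summed to 39.0 and 43.4 CPM in WT control and to 4.72 to 20.3 CPM elsewhere. The part of these cells in the GTPase levels was not tested.

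The order of the group means differed among the 10 genes. WT control and WT αMARCO held the upper places for Gbp2, Gbp3, Gbp4, Gbp5, Igtp, Iigp1 and Irgm2, with WT control first except in Gbp4 and Iigp1. These groups overlapped as neighbors in that order for Gbp4, Gbp5, Igtp, Iigp1 and Irgm2, and not for Gbp2 and Gbp3. For Gbp2 no neighboring groups overlapped, with means of 246 ± 18.0 CPM in WT control, 205 ± 3.94 in WT αMARCO, 142 ± 33.3 in Unc93b1 3d/3d control and 94.7 ± 24.4 in Unc93b1 3d/3d αMARCO (SD, n = 2 each). For Gbp7 and Tgtp2 the order ran from WT control over Unc93b1 3d/3d control and WT αMARCO to Unc93b1 3d/3d αMARCO, and the first 3 groups overlapped as neighbors. Irgm1 alone of the 10 was highest in Unc93b1 3d/3d αMARCO, with a mean of 97.3 ± 21.3 CPM, above 86.8 ± 0.592 in WT αMARCO, 72.0 ± 13.9 in WT control and 68.8 ± 4.73 in the Unc93b1 3d/3d controls. That place rested on the second replicate at 112 CPM, since the first, at 82.2 CPM, was below both WT αMARCO libraries.

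Across the 8 libraries, each gene was compared with the mean of the 10 GTPases, scaled gene by gene on log2 CPM. This is a description over 8 points that share their 4 groups. Pearson's r with that mean was 0.96 for Iigp1, 0.96 for Gbp4 and 0.94 for Gbp2, between 0.67 and 0.86 for Gbp5, Gbp3, Irgm2, Igtp, Tgtp2 and Gbp7, and -0.22 for Irgm1, each of which is part of the mean. Of the other genes, the 10 with the highest r were Gbp2b (0.99), Acp2, an unnamed gene, Magi1, Nod1, Nr1h3, Cxcl9, Slc31a2, Sh3bp5 and Tmprss4 (0.96). Gbp2b is a further GBP of the chromosome 3 cluster, and Cxcl9 is a chemokine induced by interferon-γ. Cxcl9 was at 122 and 167 CPM in WT control and at 121 and 108 CPM in WT αMARCO, where the Unc93b1 3d/3d libraries had 15.9 and 49.9 CPM without and 14.3 and 21.0 CPM with αMARCO. For Irf1 r was 0.91 and for Ifng 0.59, where 99.5% and 90.2% of 16620 genes had a lower r.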

How the data were processed

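Bulk poly-A RNA-seq of sorted TAMs was analysed in 8 libraries. The authors cleaned reads with fastp, aligned them to GRCm38 with HISAT2 2.0.5 and counted reads per gene with featureCounts 1.5.0. The handling of strand and of reads with several matches is not given in the sources used here. The authors deposited 3 tables of 4 libraries each, with raw counts per gene, and the deposited FPKM columns hold counts that the authors scaled per length of gene and size of library, although their methods mention TPM. The tables also hold DESeq2-normalized values and the authors' fold changes and p-values from DESeq2 1.40.2, which were not used. Their rows were matched on the gene identifier, giving 26939 genes. Of 95230 counts present in 2 tables, 0 differed, and 0 was entered where a table did not list a gene.

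Tests used edgeR 4.0.16 in R 4.3.3 (TMM, filterByExpr, robust quasi-likelihood), fitted to the 4 libraries compared, and p-values were adjusted over all genes tested by the Benjamini-Hochberg method. A call required an adjusted p no higher than 0.05 and a log2 fold change of 0.5 or more in either direction. The difference of αMARCO effects, the slope on T and NK marker RNA and the fits with that RNA as a covariate used all 8 libraries. The slope had no fold limit. Alternatives were DESeq2 1.42.0, its size factors, 2 other count filters, 1 model of 8 libraries, a replicate block, T and NK RNA as a covariate and each library left out. For correlations, log2 CPM had a prior count of 2.

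The GTPases, the marker and pathway lists and the tests were chosen with earlier results of these data known. Named were all 10 GTPases, the signaling genes (1 of the 10 is not reported here), at most the 4 called genes of largest fold change per other list, any set of 5 or fewer, and the 10 genes most like the GTPases. Each edgeR fit was also run on simulated counts in which 200 genes changed by 2 on the log2 scale. The fits of 4 libraries recovered 91% to 94% of these genes, the difference of αMARCO effects 57% and the slope 52%. Smaller changes were not simulated. All simulated libraries had the same spread, without the wider spread of the Unc93b1 3d/3d αMARCO pair. Promoter windows came from RefSeq (GRCm38.p6), and gene positions and overlaps from the files and GENCODE M21. All 9 GTPases other than Iigp1 matched GENCODE M21 in position and length.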

Additional observations from a re-analysis of the deposited data

Results flagged for a closer look

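F830016B08Rik, an IRG family gene outside the 10 GTPases, was singled out because both libraries moved in opposite directions in the 2 genotypes. Its level was 7.84 and 12.0 CPM in WT control and 18.8 and 14.97 CPM in WT αMARCO, a log2 fold change of 0.77, and 13.4 and 12.4 CPM in Unc93b1 3d/3d control against 11.4 and 4.83 CPM in Unc93b1 3d/3d αMARCO, a log2 fold change of -0.65. These 2 values from separate fits differ by 1.42. In the model of all 8 libraries the difference was 1.41 ± 0.54, with an edgeR adjusted p of 0.318 and an unadjusted p of 0.0307, so it did not pass. The second Unc93b1 3d/3d αMARCO replicate, which stood apart over all genes, gave the lowest of the 8 values.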

How the results depend on the processing

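With 1 library left out, the number of GTPases called ranged from 1 to 4 between the control genotypes, from 0 to 6 between genotypes under αMARCO, from 0 to 4 for αMARCO in Unc93b1 3d/3d mice and from 0 to 3 for the difference of αMARCO effects, and stayed at 0 for αMARCO in WT mice and for the slope on T and NK RNA. The numbers of all genes called ranged from 1493 to 2232, 17 to 6366, 1 to 5500 and 0 to 6440 in the same order, from 1940 to 3951 for αMARCO in WT mice (1940 without the first WT αMARCO replicate), and from 0 to 5 for the slope. The highest numbers of all genes in the 3 comparisons with Unc93b1 3d/3d αMARCO came without its first replicate. The cause was not tested.

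In 1 model of 8 libraries, which shares the spread of all groups, 0 GTPases and 364 genes were called between control genotypes, 164 genes for αMARCO in WT mice, 1 gene for αMARCO in Unc93b1 3d/3d mice and 108 genes between genotypes under αMARCO. DESeq2 called 2 GTPases and 214 genes between genotypes under αMARCO, 60 genes for αMARCO in Unc93b1 3d/3d mice and 211 for the difference of effects. With no filter beyond 1 count these 3 comparisons had 107, 174 and 152 called genes and 0 called GTPases. DESeq2's size factors and a minimum of 10 counts in every library left each of these counts within 1.5 times.

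With T and NK RNA as a covariate, which follows the groups and leaves few degrees of freedom, 0 GTPases and 0 genes were called between control genotypes, 0 genes for αMARCO in WT mice and 17 genes between genotypes under αMARCO. Signs turned on the log2 scale, each with an edgeR adjusted p of 1.0. For αMARCO in WT mice they became -1.05 for Gbp4, 0.0099 for Igtp, -1.47 for Iigp1, -0.068 for F830016B08Rik, 0.093 for Gabarapl2, 0.28 for Ifit3b and 13.5 for Ifng. Between control genotypes they became -0.52 for Irgm1, -0.20 for Gabarapl2, -9.87 for Ifng and -0.33 for Upp1. For the difference of effects they became -0.23 for Gbp2, -0.73 for Gbp4, -0.18 for Gbp7, -0.92 for Iigp1, 0.31 for Irgm1 and -0.026 for Irgm2.

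The titles share replicate numbers without saying that they pair samples. Deviations of same-numbered samples correlated by -0.00098 for αMARCO in WT mice, 0.11 for αMARCO in Unc93b1 3d/3d mice, 0.14 between genotypes under αMARCO and 0.0096 in control over 16620 genes. With the replicate number as a block, the same numbers of GTPases were called in each comparison, 4 between control genotypes and 0 elsewhere, and 5 genes for αMARCO in Unc93b1 3d/3d mice and 97 between genotypes under αMARCO. Among the named genes Ifng was not called between control genotypes with the block (edgeR adjusted p = 0.0993), and no other call changed.

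Depth limited Tgtp2, read from 7 to 22 counts. Other signs turned for small effects. With 1 library left out, the αMARCO effect in WT mice ranged from -0.035 to 0.35 for Gbp4, -0.075 to 0.022 for Gbp5, -0.20 to 0.076 for Igtp, -0.21 to 0.27 for Iigp1 and -0.20 to 0.11 for Irgm2. In Unc93b1 3d/3d mice it ranged from -0.26 to 0.19 for Gbp3, -0.42 to 0.12 for Gbp4 and -0.021 to 0.37 for Igtp. Between control genotypes Irgm1 ranged from -0.15 to 0.25 and Tgtp2 from -0.023 to 0.76, and under αMARCO Irgm1 ranged from -0.37 to 0.080. The difference of effects ranged from -0.41 to 0.39 for Tgtp2, which was 0.020 with DESeq2's size factors and 0.0025 with no filter. Slopes ranged from -0.48 to 0.68 for Gbp2, -0.12 to 0.71 for Gbp3, -0.095 to 0.47 for Igtp and -1.10 to 0.017 for Irgm2, and on T cell markers alone were -0.065, -0.044 and 0.038 for Gbp3, Igtp and Irgm2. With Tgtp1 and Tgtp2 reads summed, chosen after seeing the data, the αMARCO effect in Unc93b1 3d/3d mice was 0.38.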

Other observations

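A list of 11 genes for the loading of GBPs and IRGs onto membranes held autophagy conjugation genes together with Traf6, Trim21 and Sqstm1. In control TAMs, where 13.0% of all genes were called, Gabarapl2 and Atg3 were called higher in the WT libraries, with log2 fold changes of 0.55 ± 0.11 and 0.52 ± 0.09 (edgeR adjusted p = 0.0117 and 0.00623, n = 2 per group). Gabarapl2, a ubiquitin-like protein attached to membranes, was at 41.2 and 37.6 CPM against 26.6 and 26.7 CPM in the Unc93b1 3d/3d libraries. Atg3, an enzyme of that attachment, was at 121 and 111.7 CPM against 78.9 and 82.1 CPM. Under αMARCO in WT mice both were called lower, with -0.69 ± 0.11 and -0.55 ± 0.08 (edgeR adjusted p = 0.00132 and 0.00087), at 22.6 and 25.8 CPM and at 78.3 and 79.4 CPM. The other 9 genes of the list were not called in either comparison, the second of which called 20.7% of all genes. The control difference fell below the fold limit without the first WT control replicate (0.49 for Gabarapl2 and 0.47 for Atg3) and, for Atg3, without the first Unc93b1 3d/3d control replicate (0.49) and with a minimum of 10 counts in every library (0.499). In 1 model of the 8 libraries neither gene was called in either comparison (edgeR adjusted p of 0.183 to 0.371). These 2 comparisons share the WT control libraries.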
